A study of Homo sapiens with 6 samples.

Results

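LaminB1 regions form long unbroken blocks in many parts of the genome, and the data described here are the runs that stayed unbroken in all 4 deposited LaminB1 region lists. Chromosomes 1 to 22 were read in 1 kb steps, and a run counted as a long stretch when every step was inside a region in all 4 lists and the run was at least 100 kb long. The rule found 467 long stretches among 13473 runs shared by all 4 lists, or 3.47% of the runs. They summed to 99.6 Mb of the 329.8 Mb shared by all lists, or 30.2% of it. Length and membership come from the LaminB1 calls themselves, so both are descriptions and carry no test.

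The cells were HCT116, a human colorectal carcinoma line, and the study asked how type II topoisomerases shape chromatin folding. The double loss group, labelled a double knockout of TOP2A and TOP2B, was the TOP2A-mAID/TOP2B -/- line given 500 uM auxin (indole-3-acetic acid) for 8 h. The series text puts the resulting loss of TOP2A at up to 95%. The control group, labelled wildtype, was the TOP2A-mAID line, which also carries the degron on TOP2A but keeps TOP2B. Auxin is described for the double loss line only. Both groups were held in G1 with 2 uM palbociclib, a CDK4 and CDK6 inhibitor, for 28 h. Each group had 2 LaminB1 CUT&RUN libraries, called double loss 1 and 2 and control 1 and 2, and 1 IgG library. The labels do not say that the replicates were separate cultures, or how many clones the TOP2B knockout rests on, so p-values measure the spread between these libraries only. Regions with equal edges held equal control library counts in 61 of 61 cases in the double loss lists and 45 of 45 in the control lists, so each group was scored against 1 control library of its own, which the lists do not name. Control library, TOP2B genotype and auxin therefore cannot be told apart.

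Lamin B1 is a filament protein of the nuclear lamina, the meshwork under the inner nuclear membrane. Chromatin that touches it forms lamina-associated domains, which are usually poor in genes, late in replication and weakly transcribed, and many of them are shared between cell types. CUT&RUN releases the DNA around an antibody-bound protein for sequencing, so a LaminB1 region marks sequence enriched near the lamina over the control library. TOP2A and TOP2B relieve supercoils and knots by passing a DNA duplex through a cut in another.

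Promoters from genes that lie wholly inside long stretches are shown because they span the base composition seen there. Each is the RefSeq window of GRCh38.p14, from 250 bases before to 50 bases after the gene's start, read along the gene's strand. Capitals mark CG dinucleotides. PLPP4 encodes a phospholipid phosphatase (chr10:120456704-120457003, plus strand), ADRA2A the alpha-2A adrenergic receptor (chr10:111076779-111077078, plus strand), GFRA1 the GDNF co-receptor (chr10:116274656-116274955, minus strand) and NPS the precursor of neuropeptide S (chr10:127549059-127549358, plus strand).
PLPP4: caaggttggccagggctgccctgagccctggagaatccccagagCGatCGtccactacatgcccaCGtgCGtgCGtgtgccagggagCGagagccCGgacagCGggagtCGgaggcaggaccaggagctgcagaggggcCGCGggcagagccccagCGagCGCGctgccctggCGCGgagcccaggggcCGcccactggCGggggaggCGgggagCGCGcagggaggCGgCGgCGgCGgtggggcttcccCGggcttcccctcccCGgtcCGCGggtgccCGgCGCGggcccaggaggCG
ADRA2A: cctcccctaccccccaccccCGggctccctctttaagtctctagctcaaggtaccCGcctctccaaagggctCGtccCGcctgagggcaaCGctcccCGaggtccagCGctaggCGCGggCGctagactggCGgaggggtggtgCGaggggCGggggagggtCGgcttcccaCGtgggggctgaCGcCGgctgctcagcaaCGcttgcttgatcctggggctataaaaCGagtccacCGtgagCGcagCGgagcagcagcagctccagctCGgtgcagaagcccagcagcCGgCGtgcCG
GFRA1: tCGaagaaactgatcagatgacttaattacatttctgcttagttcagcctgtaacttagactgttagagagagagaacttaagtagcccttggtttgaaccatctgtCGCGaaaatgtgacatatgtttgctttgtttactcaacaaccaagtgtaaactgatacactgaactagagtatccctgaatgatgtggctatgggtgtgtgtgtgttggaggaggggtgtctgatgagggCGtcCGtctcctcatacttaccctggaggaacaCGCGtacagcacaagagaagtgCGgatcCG
NPS: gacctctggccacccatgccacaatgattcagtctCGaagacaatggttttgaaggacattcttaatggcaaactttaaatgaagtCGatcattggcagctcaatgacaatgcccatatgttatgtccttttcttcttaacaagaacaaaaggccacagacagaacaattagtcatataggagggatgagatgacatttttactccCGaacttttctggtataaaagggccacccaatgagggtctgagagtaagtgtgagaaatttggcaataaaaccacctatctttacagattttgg
The PLPP4 window held 33 CG dinucleotides at 77.3% G and C, and the ADRA2A window 26 at 69.3%. The GFRA1 window held 9 at 45.0%, and the NPS window 3 at 40.3%. The windows were taken from promoters wholly inside long stretches, so their place in regions of all 4 lists follows from that choice.

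Over all promoters with an entry in the table used, 85 lay wholly inside long stretches. The 85 promoters had a median G and C content of 48.0%, with quartiles of 42.7% and 64.3%, and a median CG count of 5. The 303 promoters inside shorter shared runs had medians of 47.0% and 4. The 13653 promoters that no list held whole had medians of 63.7% and 23. Fewer than 5 CG dinucleotides were found in 43.5% of the promoters in long stretches, 57.4% of those in shorter shared runs and 13.6% of those that no list held whole. A pair of short motifs was searched on both strands, TATAAA, the usual core of a TATA box, and GGGCGG, a GC box. TATAAA was found in 18.8% of promoters in long stretches and 9.71% of all 15101 promoters, and GGGCGG in 34.1% against 58.9%. The shares were 20.5% and 22.8% in shorter shared runs, close to those of long stretches for TATAAA only. In promoters of 1 to 3 lists they were 18.8% and 34.2%, close to those of long stretches for both motifs. TATAAA and GGGCGG share no letter on either strand, so matches of one cannot overlap matches of the other. A match describes the letters only.

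Long stretches held 25 of 1793 annotated microRNA genes (1.39%). MIR205 on chromosome 1 makes miR-205, a microRNA typical of epithelium. MIR4524A and MIR4524B on chromosome 17 lie on opposite strands of the same hairpin locus. Their mature forms are shown 5′ to 3′ with the seed, bases 2 to 8, in capitals, because the 5p arms of the chromosome 17 genes share their seed.
miR-205-5p: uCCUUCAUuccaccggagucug
miR-205-3p: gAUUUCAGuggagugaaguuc
miR-4524a-5p: aUAGCAGCaugaaccugucuca
miR-4524b-5p: aUAGCAGCauaagccugucuc
The mature forms map to chr1:209432166-209432187, chr1:209432203-209432223, chr17:69099606-69099627 and chr17:69099570-69099590 in that order. RefSeq's GRCh38.p14 table was the source of the sequences.

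Chromosome 8 held the largest share of the long stretches, with 111 of them and 37.2 Mb, or 37.3% of all long sequence. They ran from 62791001 to 140232000 (hg38) and made up 25.6% of the chromosome and 75.3% of its shared sequence. Chromosome 10 held 42 stretches and 12.5 Mb between 98467001 and 129471000, which was 63.7% of its shared sequence. Chromosome 16 held 9 stretches and 3.64 Mb between 78898001 and 83803000, or 54.7% of its shared sequence, and chromosome 17 held 16 stretches and 3.47 Mb between 51487001 and 71057000, or 60.8%. These 4 chromosomes carried 57.0% of long sequence and 24.7% of all shared sequence.

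**Figure D1:**
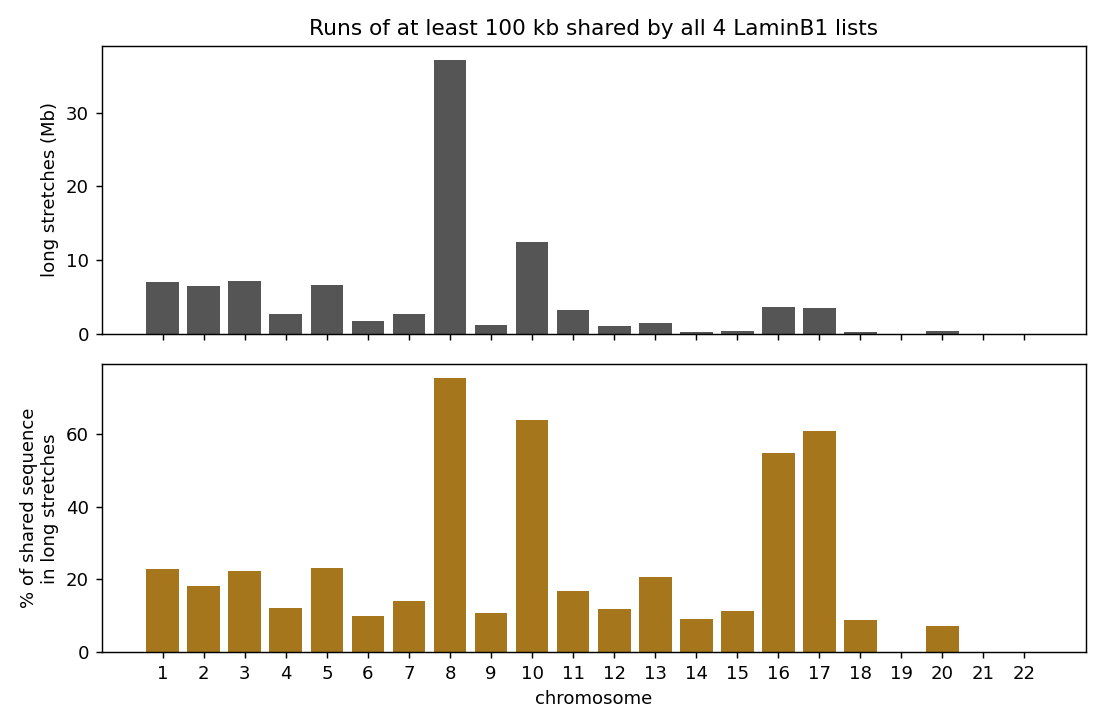
Long stretches by chromosome: the upper panel gives their summed length in Mb, the lower panel the percent of the chromosome's shared sequence that lay in long stretches. Chromosomes 8, 10, 16 and 17 stand at 75.3%, 63.7%, 54.7% and 60.8%, and the other bars lie at or below 23.2%.

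Chromosomes 1, 2, 3 and 5 held 44, 46, 44 and 46 stretches, with medians of 129, 130, 141.5 and 128.5 kb, against medians of 214 kb on chromosome 8 and 227 kb on chromosome 10. Chromosome 18 held 1 stretch, over WDR7 and BOD1L2, and chromosomes 19, 21 and 22 held none. The 3 stretches of chromosome 20 lay close together between 29015001 and 29911000. The share of the 4 leading chromosomes depended on the calls used. With the upper 50% of each list by the authors' log2 fold, they carried 25.4% of long sequence. Chromosome 8 then had 16 stretches and 11.3 Mb, chromosome 10 had 5 stretches, and chromosomes 16 and 17 had none. With regions of a list closer than 6 kb merged first, a setting chosen after seeing the data, they carried 34.9%.

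Stretch length was skewed. The median was 142 kb, with quartiles of 119 and 213.5 kb, 136 stretches reached 200 kb, 33 reached 500 kb and 6 reached 1000 kb. Of the 10 longest, 9 lay on chromosome 8. The 100 kb limit fell within a smooth tail, with 36 shared runs up to 3 kb short of it and 23 runs at it or up to 2 kb above. Runs just inside had median LaminB1 densities of 14.1 and 14.6 reads per kb in the double loss lists and 13.2 and 13.9 in the control lists. Runs just outside had 14.03 and 14.17 in the double loss lists and 13.12 and 13.96 in the control lists. The number of stretches was 810 with gaps under 6 kb closed and 289 with the upper 50% of regions by fold.

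Long stretches came in groups. Of 448 gaps between neighbours on a chromosome, the median was 220.5 kb, 86 gaps were at most 10 kb, and 308 (68.8%) were at most 1000 kb. Joined at that last distance they formed 159 groups, of which 72 were lone stretches and 28 had 5 or more members, holding 234 stretches. The group with the most members had 23 between 67596001 and 75262000 on chromosome 8, which filled 72.4% of that span. Another on chromosome 8, from 130726001 to 140232000, had 20 stretches that filled 85.3%. On chromosome 10, 17 stretches filled 87.9% of the span from 104374001 to 109811000. Away from the 4 leading chromosomes, a group of 6 on chromosome 1 filled 88.6% of the span from 208269001 to 209547000, which includes MIR205.

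Many breaks between neighbouring stretches were present in some lists only. Of 130 gaps of at most 50 kb, double loss 1 and 2 covered 70 and 75 wholly, and control 1 and 2 covered 66 and 44. In 61 of these gaps exactly 3 lists ran through without a break. A run-through in the 2 double loss lists alone was seen at 9 gaps, and in the 2 control lists alone at 5. Of the 934 edges of the stretches, all 4 lists shared 26, and 840 were set by 1 list alone. Double loss 1 and 2 set 220 and 166 of these, and control 1 and 2 set 168 and 286. Control 2, the list with the most regions (13596), set 34.0% of such edges.

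The longest stretch, chr8:118120001-119718000, spans 1598 kb and 6 protein-coding genes. They include TNFRSF11B, which encodes osteoprotegerin, the decoy receptor for RANK ligand, and ENPP2, which encodes autotaxin, the enzyme that makes lysophosphatidic acid. SAMD12, COLEC10, MAL2 and CCN3 are the others. The regions that held it measured 1617 and 1603 kb in double loss 1 and 2, and 1617 and 1610 kb in control 1 and 2. All 4 lists placed both edges almost alike. LaminB1 density was 20.2 and 20.5 reads per kb in the double loss lists, against 19.4 and 20.5 in the control lists, and the groups overlapped.

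The stretch on chromosome 16, chr16:82172001-83637000, covers most of CDH13, the gene of T-cadherin, a cadherin anchored in the membrane by a lipid. Counting the stretch beyond it as well, 99.4% of the CDH13 body of 1174 kb lay in long stretches. Its holding region had 19.5 and 20.2 LaminB1 reads per kb in the double loss lists and 18.1 and 19.3 in the control lists. Those groups did not overlap, and the limma fit described further on gave an adjusted p of 0.900 for the stretch. A stretch of 1319 kb, chr8:106863001-108182000, holds ANGPT1, the ligand of the TIE2 receptor of vessels, and RSPO2, a secreted enhancer of Wnt signalling. It had 20.4 and 21.3 reads per kb in the double loss lists and 19.0 and 20.5 in the control lists, which overlapped.

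The next in length, chr8:130726001-131836000 with 1110 kb, overlaps 1 protein-coding gene, ADCY8, a brain adenylate cyclase. Double loss 1 held it in a region of 2623 kb, against 1164 kb in double loss 2 and 1148 and 1120 kb in the control lists. That same region of double loss 1 also held the stretch chr8:131856001-132771000, over EFR3A, OC90, HHLA1, KCNQ3, DNAAF11 and TMEM71, so values of neighbouring stretches are often from 1 region. A stretch of 1052 kb, chr8:116890001-117942000, overlaps AARD, SLC30A8, MED30 and EXT1. SLC30A8 carries zinc into insulin granules, and EXT1 builds heparan sulfate. Of the EXT1 body, 46.5% lay in the stretch, while regions covered 87.8% and 94.4% of it in the double loss lists and 54.9% and 46.5% in the control lists. The groups did not overlap there, and that difference was not tested. Further stretches among the 10 longest cover FAM135B and part of COL22A1, part of ZFPM2, the gene of a GATA cofactor, SDC2 with CPQ and TSPYL5, and ZC2HC1A with IL7, the gene of a T cell growth factor. The 10 longest had 16.6 to 21.999 LaminB1 reads per kb in the double loss lists and 16.6 to 20.9 in the control lists.

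The longest stretches outside the 4 leading chromosomes were shorter. One of 604 kb on chromosome 1, chr1:213443001-214047000, overlaps RPS6KC1 and holds PROX1, the homeobox gene of lymphatic vessels and liver. It had 15.1 and 16.5 LaminB1 reads per kb in the double loss lists, against 14.6 and 14.7 in the control lists. One of 491 kb on chromosome 3, chr3:180099001-180590000, overlaps no protein-coding gene. It had 15.9 in both double loss lists, against 14.04 and 14.8 in the control lists. Before centring, the double loss lists stood above the control lists at both. After centring as described further on, the groups overlapped at the chromosome 1 stretch (log2 difference 0.04, limma adjusted p = 0.788) but not at the chromosome 3 stretch (0.07, limma adjusted p = 0.501). The longest stretch without a protein-coding gene was chr10:105783001-106411000, at 628 kb.

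The control libraries were not even across the stretches. On most chromosomes the median holding region had between 7.93 and 8.77 control library reads per kb in the double loss lists and between 6.17 and 6.98 in the control lists. On chromosome 8 it had 12.05 and 12.11 in the double loss lists and 9.20 and 9.13 in the control lists. On chromosomes 10, 16 and 17 the medians were 12.1 to 13.2 in the double loss lists and 9.32 to 10.1 in the control lists. The few stretches of chromosomes 18 and 20 were dense as well. LaminB1 reads were also denser there. Chromosome 8 had medians of 16.5 and 16.5 LaminB1 reads per kb in the double loss lists and 15.0 and 15.4 in the control lists, against 14.2 and 14.5 in the double loss lists and 13.7 and 14.3 in the control lists on chromosome 1.

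**Figure D2:**
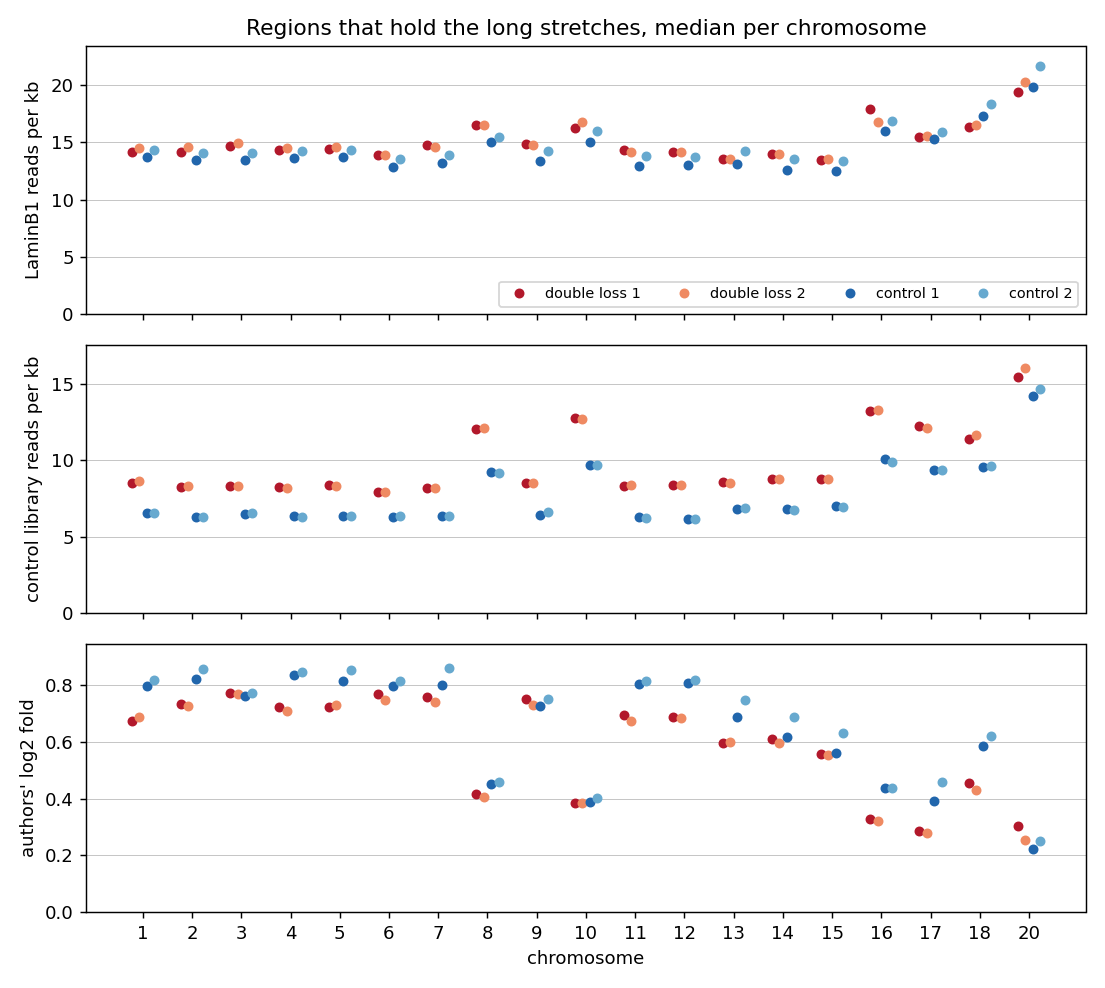
Median over the holding regions of each chromosome that has long stretches, for the 4 lists (red, double loss 1 and 2; blue, control 1 and 2): LaminB1 reads per kb on top, control library reads per kb in the middle and the authors' log2 fold below. Chromosomes 8, 10, 16, 17, 18 and 20 stand high in control library reads in all 4 lists, and chromosomes 8, 10, 16, 17 and 20 stand low in log2 fold.

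A split at 8 control library reads per kb in the control 1 list, chosen after seeing the data, separated these sets. It put 186 stretches and 58.3 Mb in a dense class, with 177 of the 178 stretches of chromosomes 8, 10, 16 and 17, and 10 stretches lay between 7.5 and 8.5. The exception was chr8:62791001-62921000, in NKAIN3, the first stretch on chromosome 8, with 6.19 in control 1. The 9 dense stretches elsewhere lay on chromosomes 2, 3, 7, 9, 12, 18 and 20 and include those at TP63, the p63 transcription factor gene, GRIP1 and NXPH2. Dense stretches had a median length of 212.5 kb and 60 of them reached 300 kb. The other 281 stretches had a median of 131 kb, and 6 reached 300 kb. The dense share was 3.38% among shared runs of 1 to 9 kb, 11.5% at 50 to 99 kb, 24.8% from 100 to under 200 kb, 65.9% from 200 to under 400 kb and 95.8% from 400 kb. HCT116 is known to carry unbalanced rearrangements that add copies of parts of the long arms of chromosomes 8, 10, 16 and 17. Copy number was not measured here, and its part in the length or density of the stretches was not tested.

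In the dense class the fold was lower although LaminB1 reads were more numerous. The authors' log2 fold sets LaminB1 reads against control library reads, less a constant of each list, so it was read within lists. The dense class was itself split on control library reads, so a lower fold in it is partly built into the split. Dense stretches had median log2 folds of 0.39 and 0.37 in the double loss lists and 0.42 and 0.44 in the control lists. The others had 0.72 in both double loss lists and 0.80 and 0.82 in the control lists. LaminB1 density was 16.5 and 16.6 reads per kb for dense stretches in the double loss lists and 15.1 and 15.7 in the control lists, against 14.3 and 14.4 for the others in the double loss lists and 13.4 and 14.1 in the control lists. Log2 fold and length ran in opposite directions over all 467 stretches but together within each class. Spearman's rho was -0.18 to -0.19 over all, 0.58 to 0.69 in the 186 dense stretches and 0.20 to 0.25 in the other 281, given as descriptions of stretches that share libraries and, in part, regions.

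**Figure D3:**
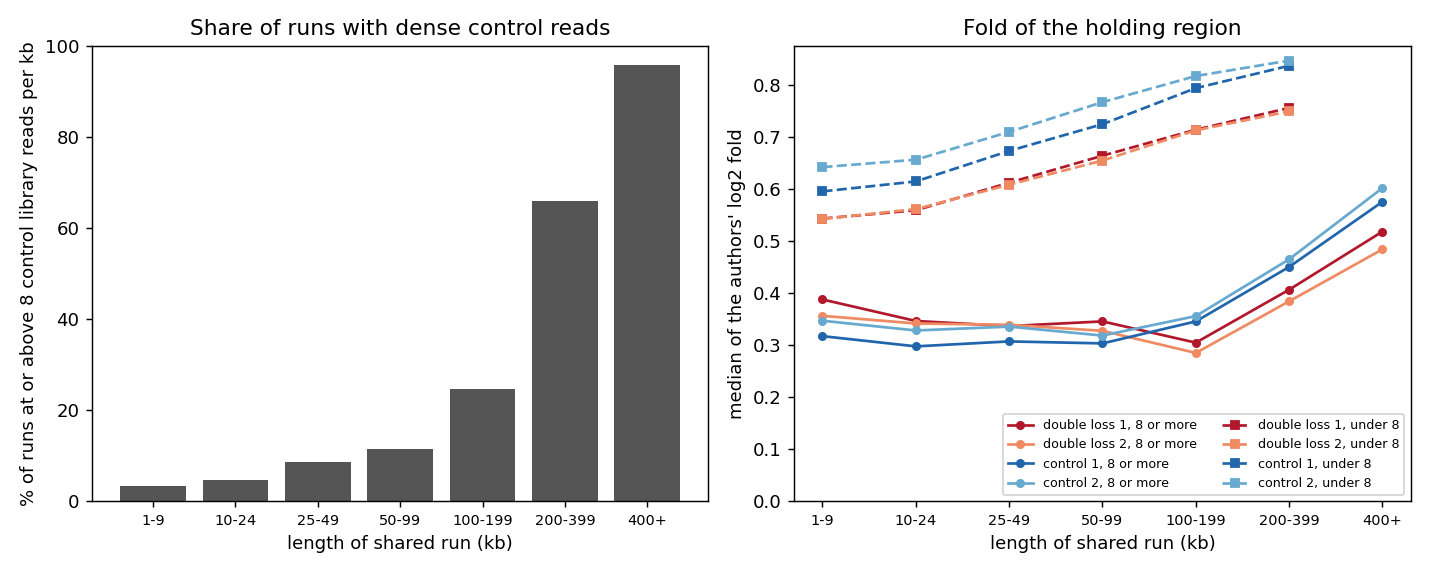
Left, percent of shared runs, by run length in kb, whose holding region had 8 or more control library reads per kb in control 1. Right, median of the authors' log2 fold by run length for runs at 8 or more (solid lines, circles) and under 8 (dashed lines, squares) in the 4 lists, shown where a class has at least 20 runs. The dense share reaches 95.8% from 400 kb, and the dashed lines lie above the solid ones at every length where both are shown.

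Ranked by control 1, the lowest fold was that of chr8:70215001-70331000, with log2 folds of 0.10 and 0.09 in the double loss lists and 0.06 and 0.10 in the control lists. The highest fold in 3 lists was that of chr2:210627001-210902000, which overlaps CPS1, a urea cycle gene, with 1.00 and 0.95 in the double loss lists and 0.97 and 1.09 in the control lists. In control 1 the highest was chr4:155151001-155282000, with 0.61 and 0.66 in the double loss lists and 1.00 and 0.93 in the control lists. The stretches of chromosome 20 and chr9:40868001-41002000 had the densest control reads, 14.9 to 18.8 per kb in the double loss lists and 12.02 to 15.19 in the control lists.

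Long stretches were poor in genes, and genes with their midpoint in them were long. They had 2.298 protein-coding gene midpoints per Mb, shorter shared runs 2.312, sequence in 1 to 3 lists 2.83 and sequence in no list 8.42. Genes placed by midpoint had a median length of 104 kb in long stretches and 73.4 kb in shorter shared runs. The medians were 49.7 kb in sequence of 1 to 3 lists and 22.9 kb in no list. Such genes can reach beyond the stretch. The 112 genes wholly inside had a median of 29.6 kb, against 24.5 kb for all protein-coding genes. Genes of 100 kb or more overlapped long stretches in 201 of 3210 cases (6.26%), and genes under 100 kb in 0.785% of cases. Gene bodies filled 41.4% of long stretches and 42.6% of whole chromosomes. Genes for long non-coding RNA stood at 4.79 per Mb in long stretches and 6.57 per Mb in no list. A long gene has more room to touch a stretch, so the shares by gene length are descriptions.

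**Figure D4:**
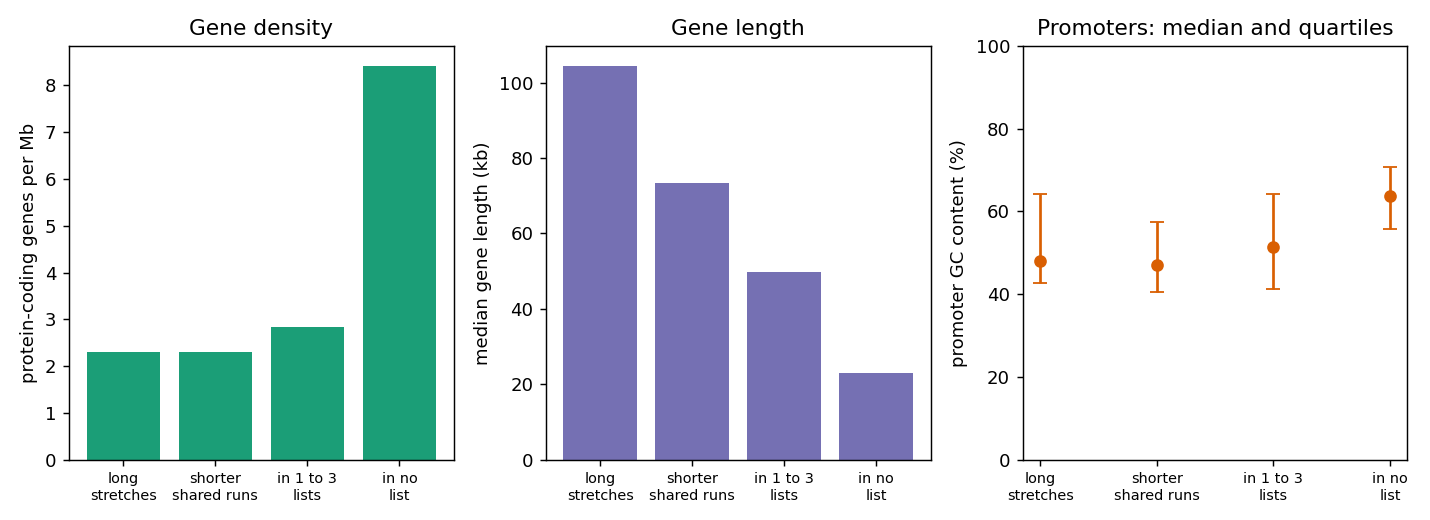
Protein-coding gene midpoints per Mb, median gene length in kb, and G and C content of promoters (points, medians; bars, quartiles) for long stretches, shorter shared runs, sequence in 1 to 3 lists and sequence in no list. Long stretches had 2.298 genes per Mb with a median of 104 kb, and sequence in no list had 8.42 per Mb with a median of 22.9 kb. Genes were placed by midpoint. Promoters of chromosome 8 are left out, while gene density and length include that chromosome.

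No protein-coding gene overlapped 182 of the 467 stretches, or 39.0% (95% Wilson interval 34.7% to 43.5%, counting error only). A single gene overlapped 215, and 70 had 2 or more. Fixed 100 kb bins of the same chromosomes had no gene in 38.2% of cases, and stretches under 200 kb had none in 43.2%. In 102 cases the whole stretch lay inside 1 gene. The gene table gives bodies only, so exons and introns were not told apart. In all, 326 of 19126 protein-coding genes (1.70%) overlapped a long stretch, 220 had at least 50% of the body inside and 112 were wholly inside, 53 of them on chromosome 8. Requiring at least 50% of a gene body raised the share of stretches with no gene to 71.3%.

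The longest genes wholly inside were CPQ (498 kb), SAMD12, FAM135B, KCNQ3, TG, ADCY8, ANGPT1 and SLC30A8 on chromosome 8, GFRA1 (218 kb) on chromosome 10 and CDYL2 (207 kb) on chromosome 16. TG encodes thyroglobulin, the thyroid hormone precursor, and CDYL2 a chromodomain protein. Several other long genes lay almost entirely inside, and were chosen here after their values were seen. ATRNL1 on chromosome 10 had 98.6% of its 856 kb inside, and HPSE2, an inactive relative of heparanase, 97.3% of 859 kb. SORCS3 and SORCS1, sorting receptors of neurons, had 99.6% and 96.0% inside, and RIMS2, a presynaptic scaffold, 96.8%. DLG2 on chromosome 11, a postsynaptic scaffold gene of 2173 kb, held 4 separate stretches and had 23.5% of its body in them. Its regions covered 87.6% and 86.4% of it in the double loss lists and 85.3% and 89.0% in the control lists. The retinoic acid receptor gene RARB on chromosome 3 held 3 stretches and had 66.2% inside.

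Among gene families, potassium channels had 10 of 93 members (10.8%) overlapping long stretches, against 326 of all 19126 protein-coding genes (1.70%). KCNQ3, a subunit of the neuronal M-current, KCNJ16, an inward rectifier, and KCNV1, a silent modifier subunit, were wholly inside, and KCNB2 was 98.0% inside. The 10 lay on 6 chromosomes, with KCNQ3, KCNV1, KCNB2 and KCNK9 on chromosome 8, which held 37.3% of all long sequence. Olfactory receptors had 14 of 391 (3.58%), and all 14 were wholly inside, 5 on chromosome 1, 8 on chromosome 11 and OR6V1 on chromosome 7. The chromosome 11 stretch, chr11:123930001-124064000, holds 8 of them, OR4D5, OR6T1, OR10S1 and 5 OR10G genes. It had 14.3 and 13.9 LaminB1 reads per kb in the double loss lists and 12.9 and 13.6 in the control lists. The chromosome 1 stretch, chr1:247401001-247637000, holds NLRP3, the inflammasome sensor, and GCSAML beside OR2B11, OR2C3, OR2G2, OR2G3 and OR14L1. Its densities were 13.9 and 14.6 in the double loss lists and 13.2 and 13.8 in the control lists. The groups did not overlap at either stretch on this scale, which is not centred. OR2 and OR10G genes are close copies, so reads in them may be shared between copies.

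Among glutamate receptors, GRIA1, an AMPA receptor subunit, had 38.9% of its body inside. GRM5, GRM7 and GRM8 encode metabotropic receptors and had 26.0%, 13.1% and 16.1% inside. Cadherins had 1 of 23, CDH13. Bitter taste receptors had 2 of 25, TAS2R38 and TAS2R16, both wholly inside on chromosome 7. Genes at common fragile sites had 3 of 11, with 28.3% of WWOX, 23.5% of DLG2 and 3.77% of FHIT inside. Of neurexins and neuroligins, NLGN1 (47.1%) and NRXN3 (8.66%) of 5 overlapped. Axon guidance receptors and ligands had EPHB1 (31.6%) of 22, teneurins and latrophilins TENM2 (10.3%) of 7, CSMD genes CSMD3 (2.23%) of 3, and zinc finger ZNF genes ZNF704 (78.5%) of 497. Median gene length was 1553 kb at common fragile sites, 898 kb in neurexins and neuroligins and 788 kb in teneurins and latrophilins. CSMD genes had a median of 1214 kb. Of all genes of at least 500 kb, 52 of 303 (17.2%) overlapped a long stretch.

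No member overlapped a long stretch among 53 clustered and 10 non-clustered protocadherins, 16 GABA-A receptor subunits, 13 contactins and their associated proteins, 20 semaphorins, 5 IgLON and 12 leucine-rich repeat adhesion genes. The same held for 149 keratins and keratin-associated proteins, 21 UDP glucuronosyltransferases, 39 beta-defensins, 33 serpins and 21 liver plasma protein genes. It held too for 80 cytosolic ribosomal proteins, 38 proteasome subunits, 12 G1 and cell cycle genes, 11 genes of lamins and the inner nuclear membrane and 6 topoisomerase genes. The last group includes TOP2A and TOP2B, and these genes and LMNB1 had 0% of their bodies in regions in all 4 lists. The lists hold no expression or protein values, so they hold no check of the knockout or the degradation. The 9 colon epithelium markers, EPCAM and VIL1 among them, lay outside every list's regions. So did 16069 of all 19126 protein-coding genes. The families without overlap differed in this. Outside every list's regions lay 2 of 53 clustered protocadherins, 8 of 16 GABA-A receptor subunits, 5 of 13 contactins and associated proteins and 1 of 5 IgLON genes. The counts were 9 of 10 for non-clustered protocadherins, 18 of 20 for semaphorins, 78 of 80 for ribosomal proteins and 37 of 38 for proteasome subunits. Of all protein-coding genes, 1.70% overlapped a stretch.

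The comparison of groups asked whether loss of both enzymes changed LaminB1 density within these shared blocks. Per library, the median holding region had 14.8 and 15.0 LaminB1 reads per kb in the double loss lists and 13.8 and 14.4 in the control lists. The means were 14.9 ± 0.142 in the double loss group and 14.1 ± 0.429 in the control group (SD, n = 2 each, exact permutation p = 0.333, two-sided, the smallest that 2 against 2 libraries allow). Shorter shared runs stood in the same order, with 12.8 and 12.9 in the double loss lists and 11.9 and 12.6 in the control lists. Control library reads were denser too, at 8.69 and 8.72 per kb in the double loss lists and 6.75 and 6.76 in the control lists. The median log2 ratio of control library density over the stretches was 0.38 (range 0.03 to 0.59), lowest on chromosomes 20 (0.21) and 18 (0.26). With 1 control library per group this ratio has no replicate, and its part in the calls was not tested. Total sequencing depth is unknown, since the lists count reads inside regions only. Holding regions had between 1312 and 52884 LaminB1 reads.

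Without centring, the median log2 difference, double loss over control, was 0.08 over the long stretches and 0.08 over all shared runs. Each list was then centred on its median over all shared runs, which removes any shift common to those runs. After centring, only a difference relative to the other shared runs could be seen, and the groups differed little. Over the 467 stretches the log2 difference in LaminB1 density, double loss over control, had a median of 0.01, ranged from -0.27 to 0.24, and lay between -0.08 and 0.10 from the 10th to the 90th percentile. No stretch was higher after double loss at a limma adjusted p under 0.05 (Benjamini-Hochberg over all 13473 shared runs), where 0.416% of all runs were. One stretch was lower, where 1.03% of all runs were. At an unadjusted limma p under 0.05, 37 of the 467 stretches were higher, against 1145 of the 13473 runs. At the same limit 26 stretches were lower, against 979 of all runs. Both double loss lists stood above both control lists in 137 stretches (29.3%), against 25.3% of all shared runs. Both stood below in 109 (23.3%), against 22.5% of all shared runs. These shares were near those of all runs. The members were chosen by LaminB1 calls in all 4 lists, and each density is over that list's own region.

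The stretch that was lower is chr10:126683001-126814000, 131 kb with no protein-coding gene. Its holding regions had 14.1 and 14.2 LaminB1 reads per kb in the double loss lists and 15.4 and 16.99 in the control lists. The groups did not overlap on the raw or the centred scale. The log2 difference was -0.27 (SE 0.0446, limma adjusted p = 0.0382). Control library density there was 12.8 and 12.6 in the double loss lists and 9.97 and 9.87 in the control lists, and the authors' log2 folds were 0.08 and 0.09 in the double loss lists and 0.36 and 0.47 in the control lists. The regions were 199 and 131 kb wide in double loss 1 and 2, and 356 and 197 kb in control 1 and 2. The call did not hold when any of the 4 libraries was left out (limma adjusted p 0.103 to 0.218), or without centring (0.118). The log2 difference itself stayed between -0.24 and -0.30 with a library left out, and was -0.20 without centring.

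**Figure D5:**
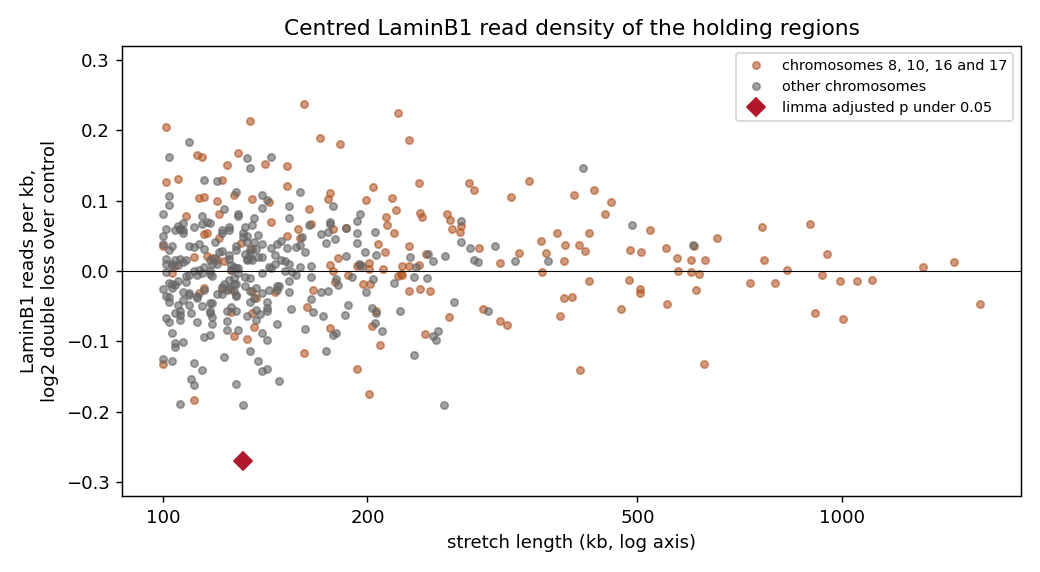
Each point is a long stretch, placed by its length in kb (log axis) and by the centred log2 difference in LaminB1 reads per kb of its holding regions, double loss over control. Points of chromosomes 8, 10, 16 and 17 (brown) and of other chromosomes (grey) scatter around 0, and the diamond at -0.27 is the stretch with a limma adjusted p under 0.05.

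Of the stretches, 5 had the smallest p among those higher in the double loss group, and none passed the adjusted threshold. The first, chr8:110597001-110758000, had 15.4 and 16.5 LaminB1 reads per kb in the double loss lists and 12.6 and 13.2 in the control lists. Its log2 difference was 0.24 (limma adjusted p = 0.0853). Its neighbour chr8:110371001-110593000 lay in the same regions in 3 lists and had 0.22. On chromosome 10, chr10:121332001-121433000 had 17.1 and 16.6 in the double loss lists and 13.5 and 14.2 in the control lists, a difference of 0.21. The neighbours chr10:108731001-108865000 and chr10:108869001-109099000 shared regions in 3 lists and had 0.21 and 0.19. The groups did not overlap at any of them, and none overlaps a protein-coding gene. Without centring, 8 stretches passed as higher and none as lower, and with only runs of at least 10 kb in the fit 3 passed as higher.

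The width of the regions around the stretches overlapped between groups, with medians of 288 and 300 kb in double loss 1 and 2, and 299 and 239 kb in control 1 and 2 (exact permutation p = 0.667, two-sided). In the limma fit of log2 width no stretch was held in wider or narrower regions after double loss (adjusted p under 0.05), as was the case for 0% of all runs in either direction. An unadjusted limma p under 0.05 was found for 5 wider and 6 narrower of the 467 stretches. Over all 13473 shared runs it was found for 711 wider and 719 narrower. Regions were wider in both double loss lists than in both control lists for 62 stretches (13.3%), against 20.9% of all shared runs, and narrower for 83 (17.8%), against 20.2%. In simulated data this width fit called none of the runs changed by 1 on the log2 scale, so it could not show changes of that size. The density fit called 72% of runs changed by 0.5 in either direction, and 7 unchanged runs. The density differences of the stretches lay between -0.27 and 0.24. Changes below 0.5 were not simulated, so the share of such changes that the fit would call is not known.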

How the data were processed

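Per the submitters' processing notes, the 75 bp read pairs were mapped to hg38 using Bowtie2 2.3.4.3, and Picard was used. Which program called the regions is not given in the sources used here. Per the file headers, each region has a raw count of LaminB1 reads and a raw count from the control library. A p-value, an adjusted p-value, a log2 fold and a score per region were also deposited by the authors. The score was 100 times the log2 fold, and the log2 fold was that of the 2 counts, LaminB1 over control, less 1 constant of each list (0.07 and 0.08 in the double loss lists, 0.27 and 0.32 in the control lists), as tested on the values. Each list was called on 1 library. The 2 IgG libraries and regions outside chromosomes 1 to 22 were not analysed here. Promoters of chromosome 8 were not analysed here.

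Coverage was computed in 1 kb steps in Python 3.11.15 (numpy 2.4.6, pandas 2.3.3, scipy 1.17.1). A stretch took the reads per kb of the region that held it in each list. Coordinates count from 1, and genes, promoters and microRNAs came from RefSeq tables of GRCh38.p14, whose chromosome coordinates are those of hg38. Log2 LaminB1 reads per kb and log2 width, each list centred on its median, were compared over all 13473 shared runs with limma 3.58.1 under R 4.3.3, using a trended prior variance and Benjamini-Hochberg adjusted p-values with a threshold of 0.05. Region edges differ between lists, so there is no common count table for a count model. The fits were tested on simulated data, with 50 runs changed at each size. Library medians had exact permutation tests.

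Groups came from the sample titles. The members, gene lists and the rule for named genes were chosen with earlier results of these data known. The rule took genes at the 10 longest stretches, the 10 longest genes wholly inside, up to 3 members of each list by share inside, genes at the 5 leading stretches per direction of the density fit, and TOP2A, TOP2B and LMNB1. Other genes named were chosen after their values were seen. A list member that the rule takes is not reported here. The alternatives omitted each replicate in turn, used replicate number as a block, or changed the length limit, the regions used, the gene overlap, the centring, the variance prior and the runs fitted. The 6 kb merge, the settings without chromosome 8, the density classes and the share on chromosomes 8, 10, 16 and 17 were added after seeing the data.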

Additional observations from a re-analysis of the deposited data

How the results depend on the processing

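Leaving out 1 list at a time gave 525 to 583 stretches, 111.4 to 126.0 Mb, and 50.3% to 53.1% of long sequence on chromosomes 8, 10, 16 and 17. A limit of 50 kb gave 1309 stretches, 156.4 Mb, 49.7% without a protein-coding gene and 40.6% on those chromosomes. A limit of 200 kb gave 136, 55.4 Mb, 28.7% and 83.2%. The upper 50% of regions by fold gave 289, 53.8 Mb and 25.4% on those chromosomes, and an adjusted p under 1e-05 gave 97.3 Mb and 56.1%. Merging regions closer than 6 kb gave 810, 197.4 Mb and 34.9%, while merging at 2 kb changed nothing, as the smallest gap in a list is 4 kb. Without chromosome 8 there were 62.4 Mb. Requiring at least 50% of a gene body gave 71.3% of stretches without a gene. The control library log2 ratio was 0.3753 over all shared runs and 0.3903 from 200 kb, against 0.3847. In the density fit, long stretches higher numbered 1 with the replicate block, 3 with runs of at least 10 kb and 8 without centring. Long stretches lower numbered 0 with any library left out, without centring, without a variance trend and with LaminB1 over control library reads. Over all shared runs, 56 were higher and 139 lower. The replicate block gave 154 and 223. Leaving out double loss 1 or 2 gave 0 and 0, leaving out control 1 gave 18 and 2, and leaving out control 2 gave 18 and 3. Runs of at least 10 kb gave 87 higher, no centring 424 higher, and LaminB1 over control library reads 0 higher and 0 lower. No centring moved the median of all runs to 0.08. In the width fit, leaving out double loss 1 gave 1 long stretch lower, a range of 0 to 1. Over all runs the block gave 65 wider and 103 narrower, and leaving out a library gave 0 to 18 wider and 0 to 44 narrower, with the highest counts without double loss 2. The cause of these moves was not tested, beyond the fewer or longer regions each setting takes in. The labels do not say whether equal replicate numbers pair the libraries. Deviations of replicate 1 from its group mean had a correlation of -0.0066 between groups, which cannot decide it. Depth per library is unknown, and 2 libraries a group limit every comparison.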

Other observations

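Some of the genes wholly inside long stretches are members of tandem families, chosen here after their values were seen. Fatty acid-binding protein genes of chromosome 8 lie in 2 neighbouring stretches. PMP2, a myelin protein gene, and FABP9 lie in chr8:81286001-81473000, and FABP4, the fat cell member, and FABP12 lie in chr8:81477001-81635000. The 2 stretches shared a region in double loss 1 and 2 and in control 1, with 16.5 and 16.8 LaminB1 reads per kb in the double loss lists and 14.8 in control 1. Control 2 broke between them and had 17.03 for the first and 15.6 for the second, so the groups overlapped at the first stretch only. The carbonic anhydrase genes CA1 and CA3 lie wholly in chr8:85262001-85464000, and 57.2% of CA13 lies in it. Its densities were 16.4 and 17.1 in the double loss lists and 16.5 and 15.7 in the control lists, which overlapped.

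On chromosome 1, GBP4 and GBP5, interferon-induced guanylate-binding protein genes, and 92.6% of GBP7 lie in chr1:89135001-89290000. Its densities were 14.5 and 14.7 in the double loss lists and 13.5 and 14.3 in the control lists, without overlap on this uncentred scale (limma adjusted p = 0.989 after centring). On chromosome 4, chr4:155151001-155282000 holds NPY2R, a neuropeptide Y receptor gene. There the double loss lists were the lower ones, at 13.1 and 13.3, against 13.8 and 14.8 in the control lists (limma adjusted p = 0.122 after centring).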
